A study of Homo sapiens with 6 samples.

Results

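The 10 genes described here are 9 ETS family transcription factors (ELK1, ELK3, ELK4, ETS1, ETS2, ETV4, ETV5, ERF and GABPA) and SRF, the partner of the ELK factors at serum response elements. They were chosen by name and matched to the gene symbols of the count files, where all 10 had a line among 24462 symbols, and all 10 were among the 12650 genes with enough counts to be tested. RNA was measured in MDA-MB 231, a claudin-low triple-negative breast cancer cell line, 48 h after transfection, in 3 groups of 2 replicate libraries. The first group received a negative control (NC) mimic, the second a miR-200a mimic (100 nM), and the third the same mimic together with an ELK3 expression plasmid (30 ng). Libraries of the third group, labelled miR-200a plus ELK3, are called plasmid-labelled here. The plasmid is named pcDNA3.1-Flag-ELK3 in the protocol and pcDNA3.1 Hygro(+)-ELK3 in the treatment label. It carries the ELK3 coding region without the 3′UTR of the gene, and the labels name neither an empty plasmid in the other groups nor a group with the plasmid alone. All groups are the same parental line without a stated genetic change, and mimic and plasmid were delivered transiently with a lipid reagent. Neither the labels nor the description of the sequencing says that the 2 replicates of a group came from separate cultures, so the p-values measure the spread between these libraries, which may be technical.

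ETS factors share a DNA-binding domain that recognizes a GGA core. ELK1, ELK3 and ELK4 form the ternary complex factor subfamily, whose members bind beside an SRF dimer at serum response elements and are phosphorylated by ERK after growth factor signalling. ELK3 (also called Net or SAP-2) differs from ELK1 and ELK4 in that it represses transcription until it is phosphorylated, and miR-200a belongs to a microRNA family known for keeping breast epithelial cells from mesenchymal change. The design asks how the mimic alone, and the mimic with the plasmid, leave the RNA of these factors.

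The libraries held 3055915 to 4868004 counts, and 3 counts, the smallest level taken as detectable, corresponded to 0.611 to 0.979 CPM (the share of a library's counts on a common scale, after TMM scaling, edgeR's correction for RNA composition). Floors and intervals given for counts cover counting error only. Replicates differed by a root mean square of 0.40 on the log2 scale over the tested genes with the NC mimic, 0.34 with miR-200a and 0.56 in the plasmid-labelled group, whose second library lay farthest from the other groups (0.71 to 0.77). Vimentin (VIM) and CD44, which mark this cell line, were abundant in all 6 libraries (summed level 1151 to 2763 CPM, lowest in the second plasmid-labelled library). Of 9 genes low in claudin-low lines, ESR1 had 0 counts in every library and PGR at most 1, and 2 to 4 of the 9 were at or below 3 counts in a library. The summed level of the 9 was 301 and 310 CPM after the NC mimic, 396 and 403 after miR-200a, and 312 and 257 in the plasmid-labelled libraries, mostly from the claudin gene CLDN4 (186 ± 9.45 CPM, SD, n = 2, with the NC mimic), so the claudin-low label was not met by every marker. Their part in the results below was not tested.

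A miR-200a mimic supplies the mature strand, taken here as the 3p strand, and its seed, bases 2 to 8, sets which transcripts it pairs with. The sequence is shown with its relatives because the family splits into 2 seeds, and the capitals mark the seed (RefSeq, GRCh38.p14).
hsa-miR-200a-3p: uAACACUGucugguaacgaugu
hsa-miR-141-3p: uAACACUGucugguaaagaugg
hsa-miR-200b-3p: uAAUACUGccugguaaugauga
The seed of miR-141-3p was identical to that of miR-200a-3p, whereas those of miR-200b-3p, miR-200c-3p and miR-429 carried C4U, with positions counted from the 5′ end of the microRNA. A seed match of miR-200a in DNA letters is CAGTGTT, searched on the transcript strand of the GENCODE 29 3′UTRs.

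Among the 10 members, the match was found in the 3′UTRs of ELK3 and ELK4, once each, and both were followed by the A that makes an 8mer site. The 30 bases around each site are shown with the 8mer in capitals.
ELK3: tgtctgcttaatCAGTGTTAaactgctatg
ELK4: gtgcgtctccatCAGTGTTAacacaggaga
The ELK3 match lies at chr12:96269668-96269674 (GRCh38, plus strand) in the last of 5 exons, 161 bases before the annotated transcript end. That of ELK4 lies at chr1:205608907-205608913 (GRCh38, minus strand), also in the last of 5 exons, 964 bases before the end of a much longer 3′UTR of 8603 bases. The other 8 members, SRF, ETS1 and ETV5 among them, held 0 matches in the 3′UTRs searched. The GABPA transcript held 1 match outside its 3′UTR. Only the chosen annotated transcript of each gene was searched, for ETS1 with a 3′UTR of 595 bases. Matches in other or longer transcripts would be missed. For comparison, 19.6% of 11256 tested genes with an annotated 3′UTR held a match and 5.2% an 8mer. These are matches of letters, and no binding was measured here.

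ELK3 was lower in all 4 libraries that received the miR-200a mimic than in both NC mimic libraries, a pattern that ETS2 and GABPA shared. It had 618 and 509 counts after the NC mimic, 493 and 505 after miR-200a and 406 and 337 in the plasmid-labelled pair. These correspond to 152 ± 20.1, 103 ± 0.382 and 87.7 ± 12 CPM (SD, n = 2 each). The 3 groups did not overlap, which here and for all genes is judged in CPM because library totals differ, and the lowest value was in the second plasmid-labelled library.

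Against the NC mimic, the log2 fold change of ELK3 with miR-200a was -0.56 (standard error 0.15, 95% interval -0.90 to -0.22), with an adjusted p of 0.232 when all 6 libraries shared the estimate of the spread. When the model held only those 2 groups the adjusted p was 0.000233. Leaving out either plasmid-labelled library also removes the spread of that group, so those fits, in which ELK3 passed too, are no separate support. With all 6 libraries the adjusted p was 0.349 in DESeq2 and 0.395 with a replicate block. ELK3 did not pass without any single NC mimic or miR-200a library. Among the alternatives it passed only where the third group did not contribute to the spread. In plasmid-labelled against NC mimic libraries, ELK3 fell by 0.79 on the log2 scale (standard error 0.15, adjusted p = 0.0117). This call was lost when either NC mimic library was left out, which leaves a single library in that group.

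The plasmid-labelled libraries did not hold more ELK3 reads than the miR-200a libraries. The log2 fold change was -0.23 (95% interval -0.57 to 0.12, adjusted p = 0.354). Over the alternative fits listed below it ranged from -0.37, without the first plasmid-labelled library, to -0.14. QuantSeq reads lie close to the polyadenylation site, and the plasmid lacks the 3′UTR of ELK3, so the count of ELK3 does not check whether plasmid RNA was present. By qRT-PCR and Western blot in this cell line, the paper reported that ELK3 RNA and protein returned to the control level with mimic and plasmid. Whether those measurements used the sequenced cultures is not stated. How reads of plasmid transcripts were counted is not given in the sources used here. Fewer cells with the transcript and less transcript per cell cannot be told apart in these bulk libraries, for ELK3 or for any other gene.

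ELK4, the other ternary complex factor with a seed match, showed no such pattern. Its 154 and 118 NC mimic counts compared with 188 and 182 after miR-200a and 189 and 135 in the plasmid-labelled libraries, or 36.4 ± 2.98, 38.1 ± 1.38 and 38.2 ± 9.22 CPM. All 3 groups overlapped. With miR-200a its log2 fold change was 0.07 (95% interval -0.38 to 0.52, adjusted p = 0.964), which leaves out the central estimate for ELK3, although the difference between these genes was not tested. A gene on the opposite strand, MFSD4A, reaches the 3′ end of ELK4 in GENCODE 29, and whether the counting used strand is not given in the sources used here.

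ELK1, which activates transcription after phosphorylation by ERK, had 295 and 175 counts after the NC mimic, 293 and 327 after miR-200a and 263 and 185 in the plasmid-labelled pair. Its levels of 61.4 ± 6.08, 63.7 ± 4.10 and 52.9 ± 13.3 CPM overlapped in every pair of groups. Against the NC mimic, the log2 fold change was 0.05 after miR-200a and -0.22 in the plasmid-labelled libraries (adjusted p = 0.973 and 0.478). Over the alternative fits listed below, the latter ranged from -0.49, without the first plasmid-labelled library, to -0.017.

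The make-up of the subfamily can be read within each library, which needs no scaling between libraries. This and the next ratios were chosen after the values had been seen and carry no test. ELK3 made up 57.9% (exact binomial 95% interval 54.9 to 60.9) and 63.5% (60.0 to 66.8) of the counts of ELK1, ELK3 and ELK4 with the NC mimic. The share was 50.6% (47.4 to 53.8) and 49.8% (46.7 to 52.9) with miR-200a, and 47.3% (43.9 to 50.7) and 51.3% (47.4 to 55.2) in the plasmid-labelled libraries. All 4 mimic-treated libraries lay below both NC mimic libraries, and the groups that received the mimic overlapped each other. The 3 genes summed to 238 and 262 CPM after the NC mimic, 202 and 207 after miR-200a, and 203 and 154 in the plasmid-labelled libraries. Because 3′ tags of different genes may be primed with unequal efficiency, the shares are comparable between libraries and are not molar proportions.

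**Figure D1:**
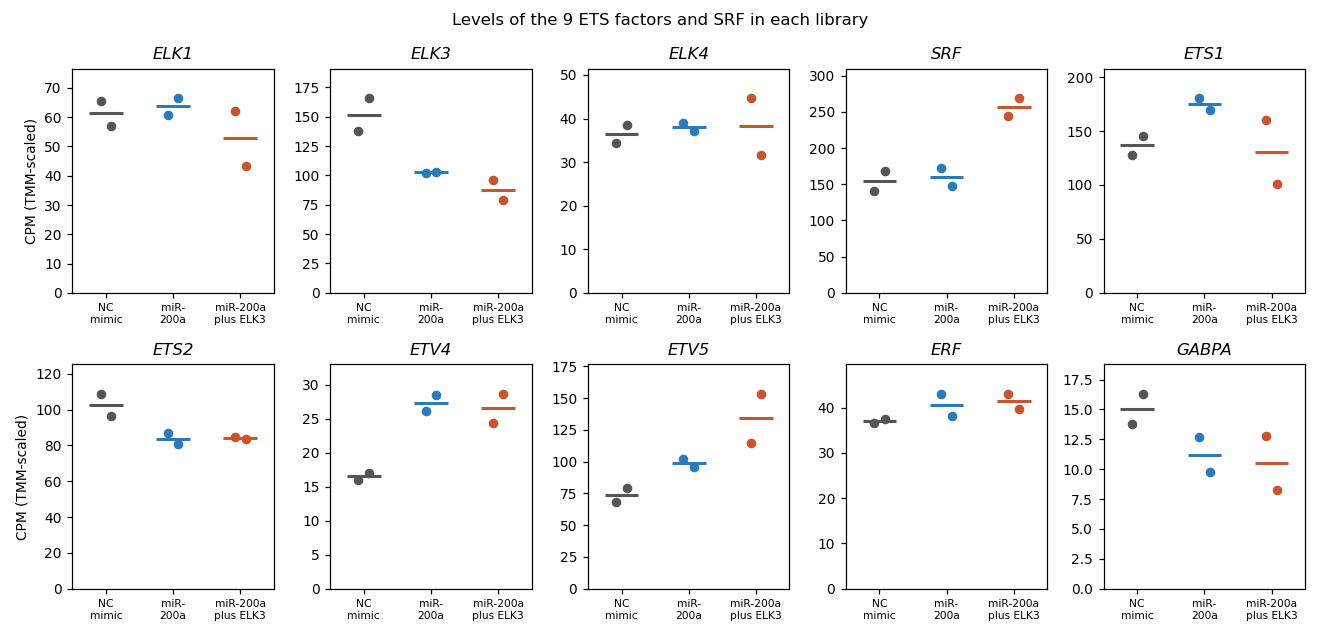
Level of each of the 10 genes in every library, in CPM after TMM scaling (vertical axes start at 0 and differ between genes), by group; points are libraries and bars are group means. ELK3 steps down from 152 to 103 to 87.7 CPM, SRF stands apart in the plasmid-labelled libraries (257 CPM), and ETV4 and ETV5 lie above the NC mimic in all 4 mimic-treated libraries.

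SRF, a MADS-box factor that recruits both the ternary complex factors and the actin-regulated MRTF coactivators, moved in another step. It had 634 and 517 counts after the NC mimic, 829 and 725 after miR-200a and 1034 and 1146 in the plasmid-labelled pair. Its level was 155 ± 19.4 CPM, 160 ± 17.2 CPM and 257 ± 17.3 CPM (SD, n = 2) in that order. The first 2 groups overlapped, and both libraries of the third lay above all others.

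For miR-200a against the NC mimic the log2 fold change of SRF was 0.05 (95% interval -0.27 to 0.37, adjusted p = 0.965). In the plasmid-labelled libraries SRF rose by 0.68 over miR-200a (1.61-fold, standard error 0.14, adjusted p = 0.0153) and by 0.73 over the NC mimic (1.66-fold, standard error 0.14, adjusted p = 0.0114). With the plasmid-labelled library that lay farthest from the rest left out, the rises were 0.57 and 0.64. A single library then stands for the group, so that fit holds no spread between plasmid-labelled libraries. The rises did not pass when a miR-200a library was left out of the first or an NC mimic library out of the second.

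SRF is known to bind its own promoter, and the sequence is shown because SRF alone, of the 7 members matched in the RefSeq promoter table, held a CArG box, the element bound by SRF. The window, chr6:43171019-43171318 (GRCh38.p14, plus strand), runs from 250 bases before the start site to 50 after it, and capitals mark 2 CArG boxes and 1 match to the ETS motif CCGGAA, searched on both strands.
SRF: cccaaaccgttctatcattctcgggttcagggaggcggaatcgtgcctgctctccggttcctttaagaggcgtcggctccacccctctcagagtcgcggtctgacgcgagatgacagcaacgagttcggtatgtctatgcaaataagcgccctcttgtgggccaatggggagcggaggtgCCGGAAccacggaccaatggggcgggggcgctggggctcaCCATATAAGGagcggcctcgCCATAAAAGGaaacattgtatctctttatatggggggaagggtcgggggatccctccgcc
The CArG boxes begin 30 and 10 bases before the start site, and the ETS match begins 70 bases before it and overlaps neither. A CArG box was found in 1.29% of 35116 promoter windows of that length and CCGGAA in 17.2%. ELK4 held CCGGAA at 2 positions and GABPA at 1, and the windows of ELK1, ELK3, ETS2 and ERF held neither motif. Promoters of ETS1, ETV4 and ETV5 are not analysed here, and a match is a description of letters only.

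The ratio of SRF to ELK3 sets these opposite directions side by side. SRF had 1.03 and 1.02 counts per ELK3 count after the NC mimic, 1.68 and 1.44 after miR-200a, and 2.55 and 3.4 in the plasmid-labelled libraries. The 3 groups did not overlap, and the group means were 1.02 ± 0.00719, 1.56 ± 0.174 and 2.97 ± 0.604 (SD, n = 2).

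**Figure D2:**
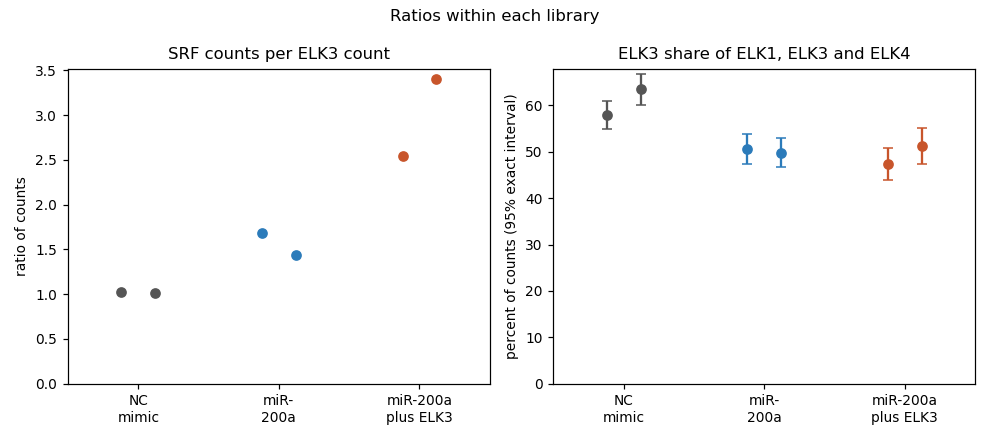
Left, SRF counts divided by ELK3 counts in each library; right, ELK3 as a percentage of the counts of ELK1, ELK3 and ELK4, with exact binomial 95% intervals that cover counting error only. Points are single libraries by group: the ratio goes from 1.02 and 1.03 with the NC mimic to 2.55 and 3.4 in the plasmid-labelled libraries, while the ELK3 share is lower in all 4 mimic-treated libraries than in the NC mimic libraries.

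ETV4 and ETV5 belong to the PEA3 group of ETS activators, whose transcription is induced by ERK signalling. ETV5 had 305 and 243 counts after the NC mimic, 490 and 470 after miR-200a and 485 and 653 in the plasmid-labelled pair. This gave 73.6 ± 8.04, 98.8 ± 4.22 and 134 ± 27.3 CPM, with no overlap between any groups, and the highest level was in the second plasmid-labelled library. ETV5 rose by 0.87 on the log2 scale between the NC mimic and plasmid-labelled libraries (1.83-fold, standard error 0.17, adjusted p = 0.0117). When either NC mimic library was left out, this difference did not pass, with a single library left in that group. The single steps were 0.43 for miR-200a against the NC mimic (adjusted p = 0.485, and 0.00608 with only those 2 groups in the model) and 0.44 from miR-200a to the plasmid-labelled libraries (adjusted p = 0.104). Without the second plasmid-labelled library, the latter was 0.18, and without the first it was 0.64, each from a single library of that group.

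ETV4, at lower counts, was apart from the NC mimic already with miR-200a. It had 72 and 52 counts after the NC mimic, 126 and 140 after miR-200a and 103 and 122 in the plasmid-labelled pair, or 16.5 ± 0.660, 27.3 ± 1.67 and 26.5 ± 3.03 CPM. Both groups with the mimic lay above the NC mimic and overlapped each other. The log2 fold change with miR-200a was 0.73 (95% interval 0.26 to 1.20, adjusted p = 0.271), with an adjusted p of 0.0128 when only those 2 groups were in the model. In plasmid-labelled against NC mimic libraries it was 0.69 (adjusted p = 0.0589), and 0.54 to 0.82 over the alternative fits listed below. Between the groups with the mimic it was -0.04 (95% interval -0.48 to 0.40, adjusted p = 0.907). Since DHX8, on the opposite strand, reaches the 3′ end of ETV4, reads of these 2 genes may not be separable.

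ETS1 and ETS2, founding members of the family that are activated by ERK phosphorylation, differed in pattern. ETS1, which is prominent in invasive breast cancer cells, had 575 and 445 counts after the NC mimic, 871 and 832 after miR-200a and 676 and 431 in the plasmid-labelled pair. The levels were 137 ± 12.1, 175 ± 8.0 and 131 ± 41.6 CPM. The miR-200a libraries were the highest, and the plasmid-labelled libraries spread from 101 to 160 CPM, on either side of the NC mimic. The log2 fold change of ETS1 was 0.36 with miR-200a (adjusted p = 0.637, and 0.00362 with only those 2 groups) and -0.42 in plasmid-labelled against miR-200a libraries (95% interval -0.85 to 0.01, adjusted p = 0.169). The size of the latter depended on which library was kept. It was -0.79 without the first plasmid-labelled library and -0.17 without the second, each from a single library of that group.

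ETS2 had 489 and 295 counts after the NC mimic, 418 and 396 after miR-200a and 358 and 355 in the plasmid-labelled pair. At 103 ± 8.94, 83.7 ± 4.31 and 84.1 ± 0.957 CPM, the groups with the mimic lay below the NC mimic without overlap and overlapped each other. The log2 fold changes against the NC mimic were -0.30 with miR-200a and -0.29 in the plasmid-labelled libraries (adjusted p = 0.577 and 0.196), and neither passed. Counts of ETS1 per count of ETS2 were 1.18 and 1.51 after the NC mimic, 2.08 and 2.10 after miR-200a, and 1.89 and 1.21 in the plasmid-labelled libraries.

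ERF and GABPA passed in no comparison. ERF, a repressor that leaves the nucleus when ERK phosphorylates it, had 164 and 115 counts after the NC mimic, 207 and 187 after miR-200a and 182 and 169 in the plasmid-labelled pair. Its levels were 37.0 ± 0.708, 40.5 ± 3.45 and 41.4 ± 2.39 CPM, and the 95% interval of its log2 fold change with miR-200a was -0.24 to 0.51 (adjusted p = 0.885). In GENCODE 29 another model on the same strand, AC006486.1, overlaps the 3′ end of ERF. GABPA, the DNA-binding subunit of GABP and a factor for housekeeping and mitochondrial genes, had 62 and 50 counts after the NC mimic, 61 and 48 after miR-200a and 54 and 35 in the plasmid-labelled pair. At 15.1 ± 1.77, 11.2 ± 2.04 and 10.5 ± 3.23 CPM, both groups with the mimic were below the NC mimic, with log2 fold changes of -0.42 and -0.51 (adjusted p = 0.735 and 0.283) and intervals that reached 0.24 and 0.16.

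Counted over the 10 members, none passed in miR-200a against NC mimic libraries at an adjusted p under 0.05 in the edgeR quasi-likelihood test with all 6 libraries, where 0.269% of all tested genes passed. At an unadjusted p under 0.05 there were 3 members, against 9.24% of all genes. DESeq2 called 0 members and 87 of 12650 genes. With only the 2 groups in the model, 4 of 10 passed (ELK3 lower, and ETS1, ETV4 and ETV5 higher), against 7.90% of all genes. In plasmid-labelled against miR-200a libraries 1 of 10 passed (SRF), against 12.9% of all genes, a share close to the background. In plasmid-labelled against NC mimic libraries 3 of 10 passed (SRF and ETV5 higher, ELK3 lower), again against 12.9%. ELK1, ELK4, ETS2, ERF and GABPA passed in none of these fits, which kept both libraries of each group compared. With 2 groups in the model the last 2 counts were also 1 and 3, against 4.58% and 4.73%. They were 5 and 6 without the first plasmid-labelled library, when 37.4% and 37.3% of all genes passed, 1 and 3 without the second (22.5% and 22.7%), and 0 when a miR-200a library was left out of the former or an NC mimic library out of the latter.

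Separation between groups was common among the members and among all genes. The groups did not overlap for 7, 4 and 7 of the 10 members in the 3 comparisons in that order, against 48.9%, 58.2% and 56.7% of all genes. The median log2 fold change of the members was 0.06, -0.02 and 0.01, against -0.02, 0.02 and 0.01 for all genes, with members on either side of 0 in each comparison. The 3 comparisons share libraries and are not independent of each other. The 10 genes summed to 750 and 822 CPM after the NC mimic, 826 and 777 after miR-200a, and 888 and 838 in the plasmid-labelled libraries.

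**Figure D3:**
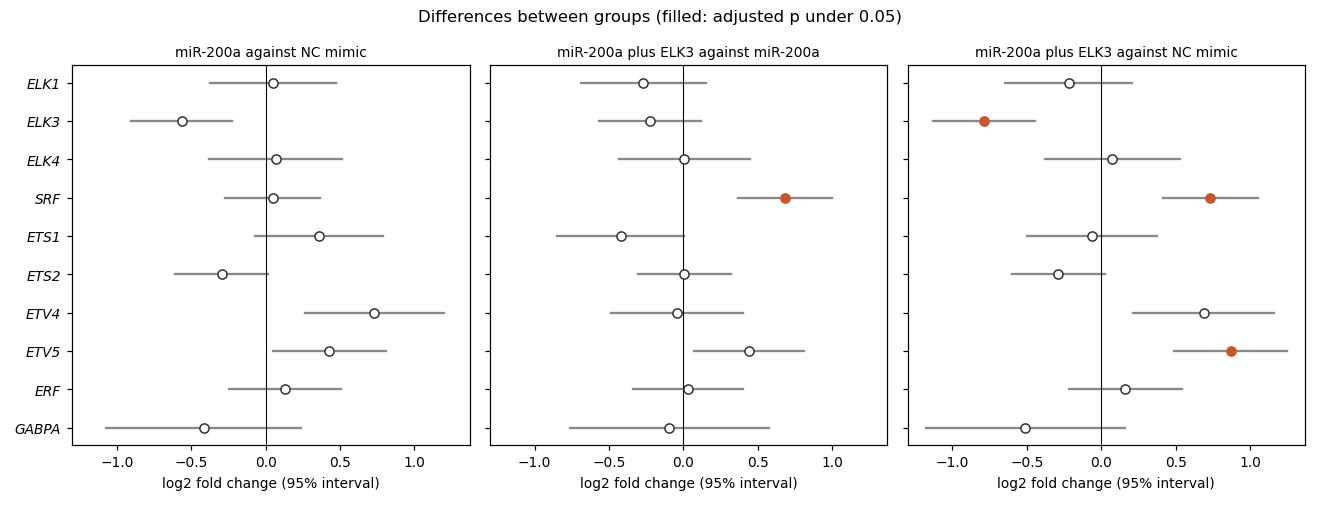
Log2 fold change of each of the 10 genes in the 3 comparisons (points, with 95% intervals from the edgeR quasi-likelihood fit of all 6 libraries); filled points have an adjusted p under 0.05. No point is filled for miR-200a against the NC mimic, SRF is filled in both comparisons of miR-200a plus ELK3, and ELK3 (-0.79) and ETV5 (0.87) are filled against the NC mimic.

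Most of the rest of the ETS family was near or below detection. Of 19 further family members, 7 had enough counts to be tested, and 12, including ERG, FLI1, SPI1 and SPDEF, had at most 12 counts in any library. After miR-200a, 0 of the 7 passed against the NC mimic. In plasmid-labelled against miR-200a libraries, 3 of 7 fell, against 5.91% of all genes that fell in that comparison. They were ETV1, the third PEA3 gene, and the epithelial factors ELF3 and EHF. ETV1 had 367 and 266 counts after the NC mimic, 352 and 371 after miR-200a and 209 and 128 in the plasmid-labelled pair. It fell in the plasmid-labelled libraries, with a log2 fold change of -0.90 against miR-200a (adjusted p = 0.0231) and -1.08 against the NC mimic (adjusted p = 0.0117), whereas ETV5 rose in the latter.

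ELF3 had 37 and 26 counts after the NC mimic, 99 and 129 after miR-200a and 44 and 48 in the plasmid-labelled pair. With miR-200a its log2 fold change was 1.49 (adjusted p = 0.0557, and 5.17e-05 with only those 2 groups), and from there to the plasmid-labelled libraries it fell by 1.11 (adjusted p = 0.0190). EHF took the same course, from 17.6 ± 5.62 to 27.0 ± 2.39 and 13.6 ± 3.91 CPM, and fell by 0.99 (adjusted p = 0.0469) in the latter step. None of the 3 passed between the groups with the mimic when only those were in the model (adjusted p = 0.0683 for ETV1, 0.0520 for ELF3 and 0.0714 for EHF).

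Partner subunits of GABPA and coactivators of SRF did not pass in any comparison (4 of 5 tested). GABPB1, a regulatory subunit of GABP, was at 23.5 ± 3.27, 23.6 ± 2.79 and 27.7 ± 0.350 CPM in the 3 groups. MKL1 (MRTFA), the actin-regulated coactivator of SRF, was at 4.72 ± 1.63, 5.45 ± 0.218 and 6.73 ± 1.54 CPM, with log2 fold changes of 0.25, 0.30 and 0.55 in the 3 comparisons (adjusted p = 0.918, 0.615 and 0.375). The muscle coactivator MYOCD had 0 counts in each library. Among 10 genes of the RAS-ERK cascade, which phosphorylates the ternary complex factors, HRAS alone passed (1 of 10 in either comparison of the plasmid-labelled libraries, against 12.9% of all genes). It had 219 and 122 counts after the NC mimic, 211 and 196 after miR-200a and 277 and 413 in the plasmid-labelled pair, and rose by 0.96 over miR-200a and by 0.87 over the NC mimic (adjusted p = 0.0170 and 0.0249, and 0.0515 and 0.0629 with only the 2 groups compared). In the model of the NC mimic and miR-200a libraries alone, NRAS passed instead (log2 fold change 0.45 with all libraries, adjusted p = 0.798, and 0.0132 with only those 2 groups). Over miR-200a, 2 genes of the cascade were higher and 4 lower without the first plasmid-labelled library (37.4% of all genes called), and 2 higher and 1 lower without the second (22.5%).

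Immediate-early genes with serum response elements are those on which SRF and an ELK factor form a ternary complex. Of 10 listed, 9 were tested. After miR-200a, 1 of 9 fell, against 0.0553% of all genes, with a median log2 fold change of -0.42. In the plasmid-labelled libraries, 6 of 9 fell against miR-200a (median -1.60, with 5.91% of all genes lower) and 8 of 9 against the NC mimic (median -2.0, with 5.95% of all genes lower), and 0 rose in any of the 3 comparisons. Without the second plasmid-labelled library the counts were 8 and 8 (11.5% and 11.1% of all genes lower), and without the first 6 and 8 (18.2% and 17.4%). In models of 2 groups the counts were 5 after miR-200a and 5 and 6 in the plasmid-labelled libraries. Of all genes, 7.90%, 4.58% and 4.73% were called in those models, in either direction.

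EGR1, a zinc finger factor and classical ELK target, had 3814 and 2617 counts after the NC mimic, 2367 and 2552 after miR-200a and 907 and 899 in the plasmid-labelled pair. It fell by 0.75 on the log2 scale after miR-200a (adjusted p = 0.0289), with a further -1.25 from there to the plasmid-labelled libraries (adjusted p = 0.000389) and -2.0 between the outer groups (adjusted p = 2.72e-05). Its groups did not overlap, and its order over the groups was that of ELK3.

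FOS, the gene on which the serum response element was defined, had 550 and 494 counts after the NC mimic, 583 and 615 after miR-200a and 184 and 54 in the plasmid-labelled pair. It fell in the plasmid-labelled libraries, with log2 fold changes of -2.13 against miR-200a and -2.33 against the NC mimic (adjusted p = 0.00927 and 0.00620), and those 2 libraries differed widely. The same pair of log2 fold changes was -1.69 and -2.22 for FOSB and -1.38 and -1.69 for JUNB, both partners in the AP-1 complex, and -2.25 and -2.21 for the orphan nuclear receptor gene NR4A1 (adjusted p between 0.000201 and 0.00293). MCL1, an anti-apoptotic gene, fell in both as well, at -0.59 and -1.09 (adjusted p = 0.0378 and 0.00348). EGR2, with at most 28 counts in a library, and IER2 passed against the NC mimic alone, at -2.59 and -0.61 (adjusted p = 0.0241 and 0.0192), and EGR3 passed in no comparison.

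The other class of SRF targets, genes that respond to actin through the MRTF coactivators, did not share this pattern as a list. Of 9 tested, 0 passed after miR-200a, and 2 fell in either comparison of the plasmid-labelled libraries, where 5.91% and 5.95% of all genes fell (medians over the 3 comparisons 0.07, -0.25 and -0.17). The pair that fell was CTGF and CYR61, matricellular genes that YAP also controls. Their log2 fold changes were -0.93 and -0.94 for CTGF (adjusted p = 0.00614 and 0.00498) and -1.41 and -1.36 for CYR61 (adjusted p = 0.0187 and 0.0210, and 0.0596 and 0.0529 with only the 2 groups compared). CYR61 was at 2045 ± 7.50, 2110 ± 69.6 and 797 ± 486 CPM, so its plasmid-labelled libraries differed widely. The actin gene ACTB had log2 fold changes of 0.01, 0.19 and 0.20, which did not pass (adjusted p = 0.989, 0.226 and 0.205). Without the first plasmid-labelled library, 3 of 9 were higher and 4 lower against miR-200a, with 37.4% of all genes called.

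ETV4 and ETV5 are themselves induced by ERK, and 8 other genes that ERK induces, mostly feedback inhibitors, were tested beside them. After miR-200a, 0 of the 8 passed with all libraries. With only the NC mimic and miR-200a groups in the model, DUSP4 and DUSP5 passed as higher, against 7.90% of all genes called. Their log2 fold changes with all libraries were 0.43 and 0.33, with adjusted p of 0.000131 and 0.000423 in that model of 2 groups. Between miR-200a and the plasmid-labelled libraries 5 of 8 fell, against 5.91% of all genes, namely the ERK phosphatase genes DUSP4 (log2 fold change -0.78), DUSP5 (-1.24) and DUSP6 (-0.80) and the Sprouty genes SPRY2 (-1.03) and SPRY4 (-0.62), with adjusted p between 0.00236 and 0.0481. DUSP6 and SPRY4 did not pass with only those 2 groups in the model (adjusted p = 0.0678 and 0.0987). Against the NC mimic 3 of 8 fell (5.95% of all genes), with log2 fold changes of -0.90 for DUSP5, -0.91 for DUSP6 and -1.23 for SPRY2 (adjusted p = 0.00633, 0.0145 and 0.00294). In these comparisons ETV5 was at 0.44 and 0.87 and ETV4 at -0.04 and 0.69. The medians were 0.08, -0.70 and -0.40 in the 3 comparisons. In the 2 comparisons of that group, the medians were -0.99 and -0.78 without the first plasmid-labelled library. They were -0.55 and -0.30 without the second.

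Protease genes with ETS sites in their promoters (5 of 6 tested) had 0 calls after miR-200a, 2 lower in plasmid-labelled against miR-200a libraries (5.91% of all genes), and 0 against the NC mimic. Those 2 were MMP14, a membrane-anchored matrix protease, at 52.1 ± 11, 70.6 ± 5.32 and 44.5 ± 1.74 CPM, and PLAUR, the urokinase receptor, at 679 ± 80.2, 910 ± 4.38 and 590 ± 114 CPM. Their log2 fold changes between the groups with the mimic were -0.67 and -0.62 (adjusted p = 0.0361 and 0.0231). Both were highest with miR-200a, as ETS1 was. With only the 2 groups compared in the model, 4 of 5 passed after miR-200a, against 7.90% of all genes, namely MMP14, PLAU and PLAUR higher and MMP3 lower, and 0 in the other comparisons. MMP3, at 7 to 39 counts, had a log2 fold change of -1.85 after miR-200a (adjusted p = 0.280, and 0.00850 with only those 2 groups). ZEB1 and ZEB2, textbook targets of the miR-200 family, and CDH1 (E-cadherin), which ZEB factors repress, had 0 calls with all 6 libraries. ZEB1 was at 120 ± 12.3, 88.9 ± 7.87 and 103 ± 16.1 CPM (log2 fold change with miR-200a -0.44, adjusted p = 0.426, and 0.00618 with only those 2 groups). ZEB2 had 42 and 22 counts after the NC mimic, 20 and 25 after miR-200a and 17 and 24 in the plasmid-labelled pair. CDH1 had 1 and 0 counts, 11 and 12, and 3 and 3, so levels in the outer groups were at or below 3 counts. After miR-200a its adjusted p was 0.152, and 0.0189 with only those 2 groups.

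The genes most like ELK3 over the 6 libraries, by Pearson's r of log2 CPM among 7370 genes with a mean of at least 20 CPM, were OXR1 (r = 0.988), PTGR1 (0.985), IL13RA1 (0.985), PRKCA (0.983) and WEE1 (0.981). These are descriptions over 6 points that share the same libraries and were selected from all those genes, with no test. All 5 went from the highest level with the NC mimic to the lowest in the plasmid-labelled libraries without overlap between groups. PRKCA, a protein kinase C, was at 102 ± 14.2, 82.0 ± 2.40 and 72.6 ± 7.23 CPM. IL13RA1, a cytokine receptor subunit, was at 49.1 ± 9.92, 33.9 ± 0.451 and 25.8 ± 4.98 CPM. Against the NC mimic, PTGR1, IL13RA1 and OXR1 fell in the plasmid-labelled libraries (log2 fold changes -0.85, -0.92 and -0.71, adjusted p = 0.00781, 0.0222 and 0.0239), and PRKCA and WEE1 did not pass (adjusted p = 0.0656 and 0.0800).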

How the data were processed

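RNA of MDA-MB 231 cells was measured 48 h after transfection in 3 groups of 2 libraries by QuantSeq 3′ mRNA sequencing, which reads polyadenylated RNA near its 3′ end. The deposited files hold read counts by gene symbol (25737 lines, 24462 symbols) that the authors had not normalized. The submitters' processing notes name hg19, Bowtie2 and edgeR, without versions or roles, and the paper names ExDEGA. The counting program, its strand setting and the annotation are not given in the sources used here.

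Groups came from the sample labels. Lines that share a symbol (286 symbols) were summed. In R 4.3.3, edgeR 4.0.16 scaled the counts by TMM, kept 12650 genes (filterByExpr, minimum count 10) and compared groups by the quasi-likelihood test with all 6 libraries (3 residual degrees of freedom). Adjusted p-values are Benjamini-Hochberg values over all tested genes (threshold 0.05). On simulated data for miR-200a against the NC mimic, the procedure recovered 55.1% of 2-fold and 96.0% of 4-fold changes. Smaller changes were not simulated. CPM used TMM-scaled library sizes (totals 3055915 to 4868004). Intervals of fold changes came from the same fit. Alternatives were DESeq2 1.42.0, median-of-ratios and upper-quartile scaling, no filter, at least 10 counts in every library, only the 2 compared groups, a replicate block, the highest line per symbol, and leaving out each library. Leaving out a library leaves a single one in its group, so p-values and counts of such fits hold no spread within that group.

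Members and lists were chosen with earlier results of these data known. Named are all 10 members, of each list the genes that passed in some comparison or otherwise the 2 highest (ACTB, CDH1, EGR3, MMP3, NRAS, PLAU, and MYOCD, ERG, FLI1, SPI1 and SPDEF as examples of low genes, were named after their values were seen), and the 5 genes most like ELK3. Sequences and 3′UTRs came from RefSeq tables on GRCh38.p14 and GENCODE 29 on GRCh38, a build other than that of the counts, matched by symbol (3′UTRs for 10 of 10 members, promoters for 7). No pairing was assumed, since neither labels nor paper say that equal replicate numbers mark libraries handled together.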

Additional observations from a re-analysis of the deposited data

How the results depend on the processing

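Under upper-quartile and median-of-ratios scaling, whose largest shift of the median of all genes was -0.068, 0, 1 and 3 members were called, as reported. Other settings moved the counts. Against 34, 1637 and 1629 genes called in the 3 comparisons (miR-200a against NC mimic, plasmid-labelled against miR-200a, plasmid-labelled against NC mimic), DESeq2 called 87, 1173 and 1229, the fit without a filter on low counts 230, 2490 and 2525, and the fit of only the 2 compared groups 999, 579 and 598. Leaving out single libraries gave 0 to 1001, 39 to 4730 and 90 to 4721. In the first comparison 0 genes were called without either NC mimic library, and 990 and 1001 without the first and second plasmid-labelled library. For the members, 0 to 4, 0 to 5 and 0 to 6 were then called, the highest of the last 2 counts without the first plasmid-labelled library. With only the 2 compared groups 4 members passed in the first comparison, and without the filter 2 passed in the second. The cause was not tested.

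ELK3 was at -0.54 after miR-200a with only the 2 compared groups (adjusted p = 0.000233). Over the left-out libraries it ranged from -0.69 to -0.42 after miR-200a, from -0.37 to -0.14 in plasmid-labelled against miR-200a libraries, and from -0.92 to -0.65 against the NC mimic. SRF and ETV5 in plasmid-labelled against NC mimic libraries ranged from 0.61 to 0.86 and from 0.63 to 1.09.

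Of the members' values under these alternatives, 388 kept their direction and side of the threshold, 21 passed it newly, 8 no longer passed, and 33 changed sign, none of which passed on either side. In plasmid-labelled against miR-200a libraries, ELK4 was at -0.063 under upper-quartile scaling, -0.014 under median-of-ratios scaling, under DESeq2 and with at least 10 counts in every library, and -0.0099 without the filter. ETS2 was at -0.062, -0.013, -0.013 and -0.014 under the same 4 settings and -0.0083 without the filter, and ERF at -0.038 under upper-quartile scaling. Over the left-out libraries, the changes after miR-200a ranged from -0.044 to 0.16 for ELK1, -0.017 to 0.15 for ELK4 and -0.077 to 0.18 for SRF. In plasmid-labelled against miR-200a libraries they ranged from -0.26 to 0.19 for ELK4, -0.045 to 0.060 for ETS2, -0.054 to 0.12 for ERF, -0.21 to 0.070 for ETV4 and -0.44 to 0.15 for GABPA. Against the NC mimic they ranged from -0.17 to 0.28 for ELK4 and from -0.40 to 0.21 for ETS1.

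Libraries with the same replicate number did not deviate together (correlations -0.003, -0.036 and -0.108), so the numbers were not used as a pairing. With a replicate block, 13, 1157 and 1170 genes and 0, 1 and 3 members were called, and ELK4 between the groups with the mimic was at -0.00098. With the numbers crossed, an alternative chosen after seeing the data, 22, 1644 and 1661 genes were called, and that value of ELK4 was -0.0070. The list counts and medians without a plasmid-labelled library were added after seeing the data too.

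With 2 libraries a group and 3 residual degrees of freedom, intervals were widest among the members for GABPA (35 to 62 counts), at -1.07 to 0.24 after miR-200a.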
